A study of Homo sapiens with 6 samples.

Results

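SNX17, a sorting nexin that returns receptors from endosomes to the cell surface, was examined together with its closest relatives and with subunits of the complexes that act with it. The 10 genes, of 26490 gene symbols in the count table, were SNX17, SNX27, SNX31, VPS29, VPS35, CCDC22, CCDC93, COMMD1, COMMD3 and COMMD9. SNX17 was chosen by its measured value, its lower level after IRS2 knockdown in these same libraries. The other 9 were chosen by their role in the same sorting route, with earlier results of these data known. The values of SNX17 are therefore given as a description, with no test. The question was whether SNX17 was lower alone or together with its relatives and partners.

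The data are RNA-seq read counts from SW403, an established human colon adenocarcinoma cell line that the labels place in DMEM with 10% fetal bovine serum for 24 h before collection. The 3 control libraries came from cells with normal IRS2 (genotype WT, with NS in the column names). The 3 knockdown libraries came from cells of genotype IRS2_knockdown, with the letters IRS2KO in the column names. IRS2 encodes insulin receptor substrate 2, an adaptor of the insulin and IGF1 receptors, and the series title links it to brain metastases of colorectal cancer. How IRS2 was lowered, and whether the 3 cultures of a group derive from 1 transduced or cloned population, is not given in the sources used here, so the p-values below measure the spread between these cultures.

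Proteins taken up from the cell surface reach early endosomes, where they are either sent to lysosomes or retrieved. SNX17, SNX27 and SNX31 form the group of sorting nexins that carry a FERM domain, with which they hold the tails of cargo proteins. SNX27 hands its cargo to retromer, a trimer built on VPS35. SNX17 hands its cargo to retriever, a trimer of VPS35L, VPS26C and VPS29, so that VPS29 is a subunit of both trimers. Retriever works with the CCC complex, named after COMMD proteins, CCDC22 and CCDC93, and with the WASH complex, which nucleates actin on endosomes. Integrins and lipoprotein receptors are among the known cargo of SNX17.

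The control libraries held 11816973 to 12585013 counts and the knockdown libraries 14329348 to 18114656, so the knockdown libraries were deeper. Levels are given as CPM, the counts of a gene relative to the library total, scaled by TMM, a factor that corrects for differences in library composition. IRS2 itself was at 32.1, 34.6 and 31.8 CPM in the control libraries and at 13.1, 12.4 and 12.1 CPM in the knockdown libraries, so the targeted gene was lower in every library labelled knockdown. Of 10 colon epithelial markers, KRT8, KRT18, EPCAM, CDX2 and VIL1 were read, while 5 stayed under 1 CPM in every library, CDH1, CDH17 and LGALS4 among them, and KRT20 and CDX1 had no read. Of 10 markers of blood, endothelial and stromal cells, 7 stayed under 1 CPM in every library. Their summed level was 9.90 to 20.8 CPM in control against 6.63 to 8.51 CPM in knockdown libraries. COL1A1 was the highest of them, at 15.17 CPM in control replicate 1 and 3.67 to 5.70 CPM in the other 5 libraries, and PECAM1 had no read. The part of these markers in the results below was not tested.

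SNX17 was at 139, 138 and 133 CPM in the control libraries and at 62.4, 68.4 and 67.8 CPM in the knockdown libraries. The groups were far apart, with the highest knockdown value well under the lowest control value. The means were 137 ± 3.54 and 66.2 ± 3.31 CPM (SD, n = 3 each), which puts the knockdown cells at 48.5% of control. The log2 fold change was -1.04 ± 0.04 (SE), with a 95% interval of -1.13 to -0.95. The interval takes no account of the choice of SNX17 by its value. In bulk RNA, fewer cells expressing a gene and less RNA per cell cannot be told apart, and this holds for every gene below. Among the 3532 tested genes averaging 1000 counts or more, whose median absolute log2 fold change was 0.10, SNX17 had the third lowest log2 fold change, and 3 were lower by at least 2-fold. Over all 13832 tested genes it ranked 583 from the lowest, the lower values being mostly those of genes with fewer counts. The cut of 1000 counts lay under the SNX17 mean of 1392 counts, and the rank depends on that cut. Both ranks describe the value SNX17 was chosen by, so nothing is read from them. Of the other 8 tested genes, the lowest was COMMD9, at 87.2% of control.

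**Figure D1:**
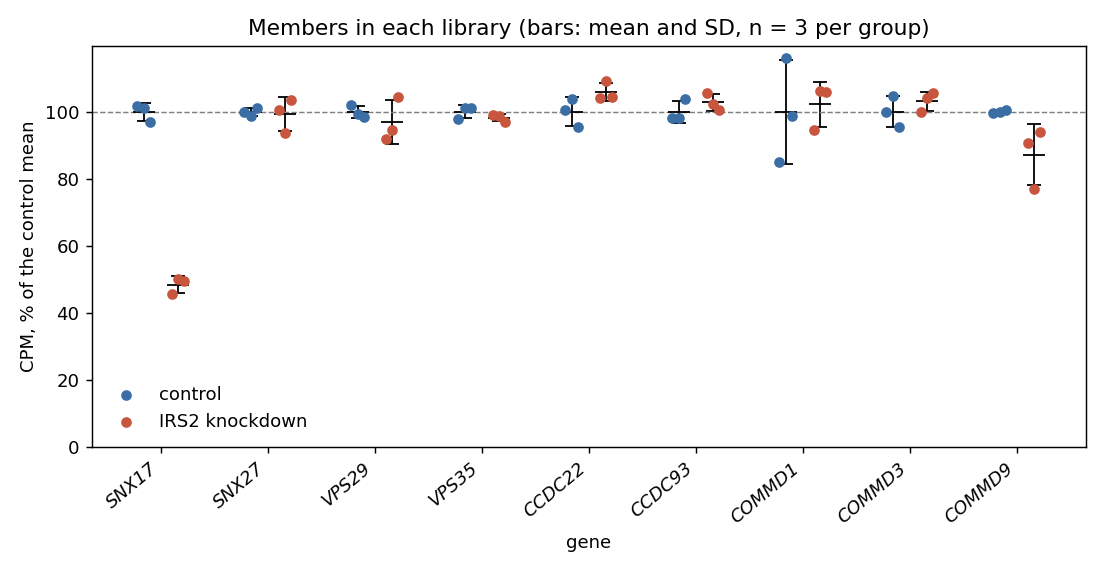
CPM of the 9 measurable genes in each of the 6 libraries, as a percentage of the mean of the 3 control libraries (blue, control; red, IRS2 knockdown; black bars, mean and SD, n = 3 per group). SNX17 sits near 48.5% of control in the knockdown libraries, and the other 8 genes lie around 100%, with COMMD9 at 87.2%.

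SNX17 lies on chromosome 2 (GRCh37, chr2:27593363-27600402, plus strand). Its upstream neighbour, EIF2B4, encodes a subunit of the translation factor eIF2B and is transcribed in the opposite direction from chr2:27587219-27593205, so the annotated starts of these genes are separated by 157 bases. This stretch is printed because SNX17 and EIF2B4 start at its ends. It runs along the plus strand of GRCh37 from chr2:27593206-27593362, with EIF2B4 beginning to its left and SNX17 to its right, and capitals mark the CG dinucleotides.

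EIF2B4-SNX17 interval: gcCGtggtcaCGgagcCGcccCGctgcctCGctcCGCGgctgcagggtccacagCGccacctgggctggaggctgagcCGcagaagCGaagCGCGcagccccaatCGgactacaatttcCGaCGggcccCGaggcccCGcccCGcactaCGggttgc

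The interval holds 19 CG dinucleotides, or 12.1 per 100 bases, and 73.2% of its bases are G or C. The median of the 35116 promoter windows in the RefSeq table (GRCh38.p14; windows of another length, which include transcribed bases) was 4.67 per 100 bases and 58.7%. EIF2B4, across this interval from SNX17, was at 77.8, 76.4 and 73.6 CPM in control against 78.6, 81.4 and 83.4 CPM in knockdown libraries. Its values in knockdown were all slightly above those in control, and groups did not overlap in 47.6% of all tested genes. The log2 fold change of EIF2B4, 0.097 ± 0.043 (SE), did not pass the threshold (edgeR adjusted p 0.0838, 95% interval 0.0066 to 0.19). The ratio of SNX17 to EIF2B4 counts, which does not depend on the scaling, was 1.79, 1.81 and 1.80 in the control libraries and 0.794, 0.840 and 0.813 in the knockdown libraries. SNX17 counts thus exceeded those of EIF2B4 in each control library and fell short of them in each knockdown library.

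Downstream, the last 301 bases of SNX17 overlap the 3′ end of ZNF513, a zinc finger gene on the other strand. Whether the counting used strand is not given in the sources used here, so reads in this overlap cannot be assigned. ZNF513 was at 10.99 ± 0.695 CPM in control against 12.3 ± 2.04 CPM in knockdown (n = 3 per group, SD; edgeR adjusted p 0.312), a small fraction of the SNX17 level. The 5 genes on either side of SNX17 with a row in the count table were examined as a group. Of these 10, UCN and KRTCAP3 had too few reads to be tested. Of the 8 tested, NRBP1, which encodes a pseudokinase, rose from 102 ± 4.23 to 150 ± 5.16 CPM (n = 3 per group, SD; log2 fold change 0.56 ± 0.04 SE, edgeR adjusted p 3.61e-09). MPV17, GTF3C2, GTF3C2-AS1, EIF2B4, ZNF513, PPM1G and IFT172 did not pass, and the lowest log2 fold change among the 8 was -0.077, that of MPV17. In edgeR 0 of the 8 were lower, as were 0 at an unadjusted p under 0.05, 0 with DESeq2 and 0 with limma voom. Among all tested genes, 19.2% were lower and 19.3% higher in edgeR. ZNF513 passed as higher without knockdown replicate 3 (log2 fold change 0.29, edgeR adjusted p 0.0403).

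**Figure D2:**
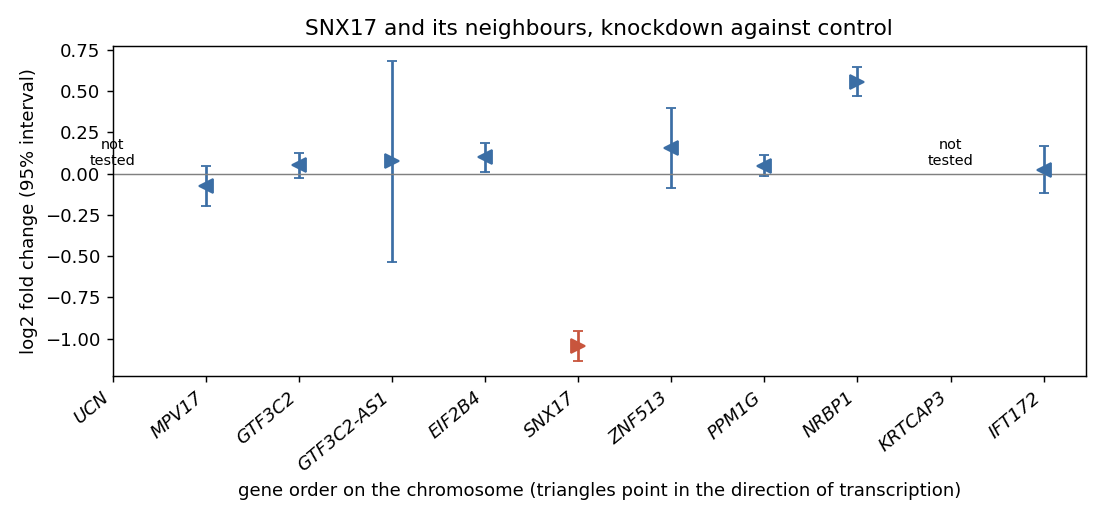
Log2 fold change of knockdown against control with its 95% interval for SNX17 (red) and the 5 genes on each side of it, in their order on the chromosome; triangles point in the direction of transcription. SNX17 is at -1.04, its divergent neighbour EIF2B4 at 0.097 and NRBP1 at 0.56.

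Of the other FERM-domain sorting nexins, SNX27 did not pass the threshold and SNX31 could not be tested. SNX27, the cargo adaptor of retromer, was at 32.9, 32.5 and 33.2 CPM in control against 33.1, 30.8 and 34.1 CPM in knockdown libraries. The groups overlapped, and the log2 fold change was -0.010 ± 0.059 (SE, edgeR adjusted p 0.915) with a 95% interval of -0.13 to 0.11. SNX31, a relative of SNX17 with a similar domain layout, had 0 counts in 5 libraries and 1 count in knockdown replicate 3. It was too low to be tested, and a count of 0 allows a level of up to 0.166 to 0.254 CPM (3 counts, depending on the library).

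Of the retriever subunits, VPS29 and VPS35L did not pass the threshold and VPS26C fell, where 19.2% of all tested genes were lower. VPS29, the subunit common to retriever and retromer, was at 52.4, 50.9 and 50.5 CPM in control against 47.1, 48.5 and 53.5 CPM in knockdown libraries, with overlapping groups (log2 fold change -0.042 ± 0.054 SE, edgeR adjusted p 0.586, 95% interval -0.15 to 0.071). VPS35L, the scaffold that takes the place of VPS35 in retriever, was at 19.5, 17.7 and 19.7 CPM in control against 19.1, 20.9 and 21.5 CPM in knockdown libraries (edgeR adjusted p 0.248). VPS26C, the arrestin-like subunit of retriever, was at 48.8, 53.2 and 54.5 CPM in control against 43.3, 36.7 and 39.2 CPM in knockdown libraries. Every knockdown value of VPS26C lay under every control value, and the groups likewise did not overlap in 47.6% of all tested genes. Its log2 fold change was -0.40 ± 0.06 (SE, edgeR adjusted p 4.20e-05), which leaves 75.9% of the control level.

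VPS35, the scaffold of retromer and the most highly counted of the 10 genes, was at 162, 167 and 167 CPM in control against 164, 163 and 160 CPM in knockdown libraries. Its log2 fold change was -0.025 ± 0.034 (SE, edgeR adjusted p 0.596) with a 95% interval of -0.096 to 0.045. Of the 4 retromer genes, VPS35, VPS26A, VPS26B and VPS29, 0 passed in edgeR, where 38.5% of all tested genes did. Of the 4, 0 had an unadjusted p under 0.05, and 0 passed with DESeq2 or limma voom. Their log2 fold changes lay between -0.042 and 0.030.

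In the CCC complex, the coiled-coil scaffolds were close to their control level. CCDC22 was at 40.3, 41.7 and 38.3 CPM in control against 41.8, 43.7 and 41.9 CPM in knockdown libraries, a narrow gap with a log2 fold change of 0.083 ± 0.053 (SE, edgeR adjusted p 0.241, 95% interval -0.029 to 0.19). CCDC22 shares 83 bases with FOXP3 on the other strand, which had at most 5 counts in a library. CCDC93 was at 77.6, 77.7 and 82.2 CPM in control against 83.6, 81.1 and 79.5 CPM in knockdown libraries (log2 fold change 0.039 ± 0.043 SE, edgeR adjusted p 0.514, 95% interval -0.051 to 0.13).

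The COMMD proteins form the ring of the CCC complex, and COMMD1 is known for its part in copper export. COMMD1 was at 15.96, 21.8 and 18.5 CPM in control against 17.7, 19.9 and 19.9 CPM in knockdown libraries. The control libraries spanned the knockdown ones, and the 95% interval of its log2 fold change of 0.036, -0.16 to 0.23, was wider than those of the scaffolds (edgeR adjusted p 0.796). COMMD3 was at 20.8, 21.7 and 19.8 CPM in control against 20.7, 21.6 and 21.9 CPM in knockdown libraries (log2 fold change 0.046 ± 0.070 SE, edgeR adjusted p 0.645). A readthrough transcript, COMMD3-BMI1, covers the same bases, so reads may have been divided between them. It had 23 to 33 counts in control and 42 to 52 in knockdown libraries, against 237 to 390 for COMMD3.

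COMMD9 was the gene of the 10 next to SNX17 in size of decrease. It was at 23.1, 23.2 and 23.3 CPM in control against 21.0, 17.9 and 21.8 CPM in knockdown libraries. The groups did not overlap, as in 47.6% of all tested genes, but knockdown replicate 2 lay apart from the other 2. Its log2 fold change of -0.20 ± 0.08 (SE, 95% interval -0.36 to -0.034) missed the threshold (edgeR adjusted p 0.0521). It passed in 6 alternatives, with adjusted p-values from 0.0170 to 0.0388, and in the one without knockdown replicate 3 its log2 fold change was -0.26. Without knockdown replicate 2, the library that lay apart, the log2 fold change was -0.11 (edgeR adjusted p 0.285).

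Over the 9 tested genes of the 10, SNX17 was the 1 gene past the threshold as lower, and 0 were higher. Of all 13832 tested genes, 38.5% passed, 19.2% as lower and 19.3% as higher. Because the comparison is the one SNX17 was chosen on, nothing is read from this count. Of the 8 other tested genes, 0 passed in edgeR, 1 (COMMD9) had an unadjusted p under 0.05, and 0 passed with DESeq2 or limma voom. Their log2 fold changes ran from -0.20 to 0.083 with a median of 0.013, beside a median of -0.0039 over all tested genes. Their 95% intervals lay between -0.36 and 0.23, while the measured value of SNX17 was -1.04. Groups did not overlap in 2 of the 8, CCDC22 and COMMD9, against 47.6% of all tested genes.

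**Figure D3:**
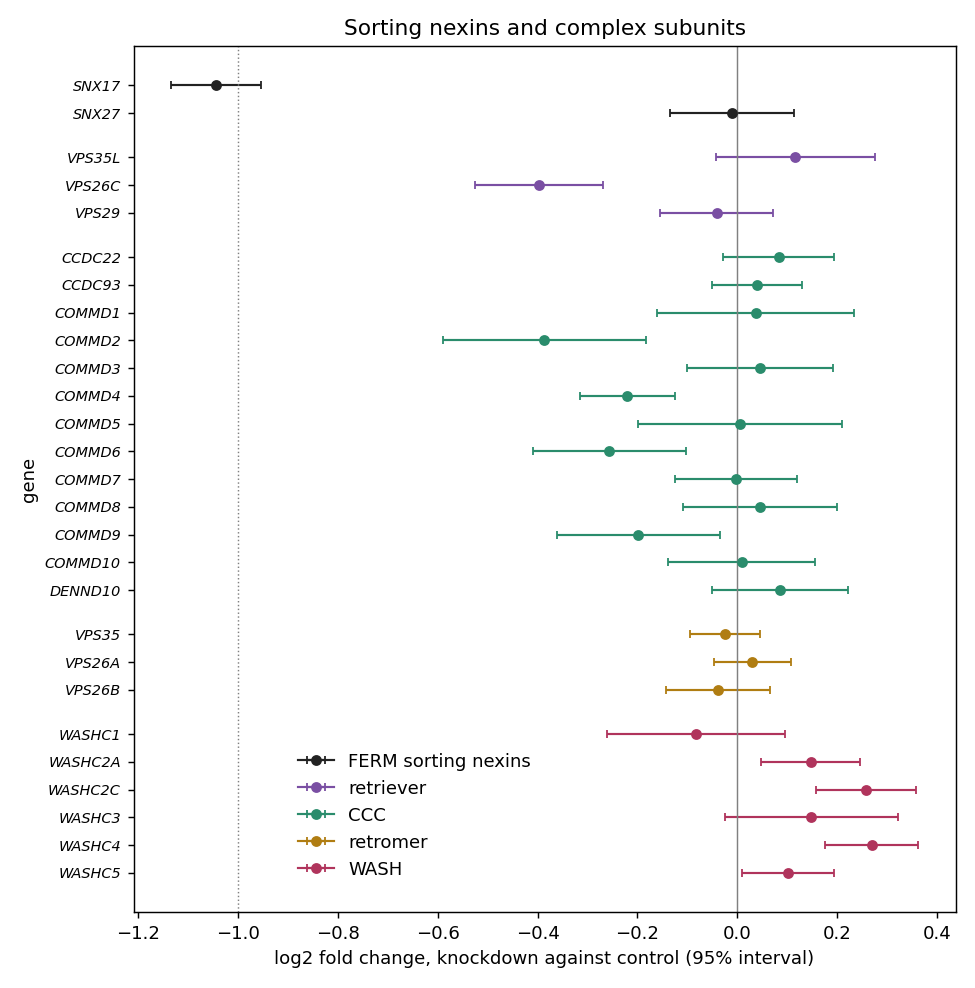
Log2 fold change of knockdown against control with its 95% interval for FERM sorting nexins and for subunits of retriever, CCC, retromer and WASH; the dotted line marks a 2-fold decrease. SNX17 is at -1.04, and the lowest of the other genes, VPS26C, is at -0.40.

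The remaining COMMD genes were mixed. Of all 10 COMMD genes, 3 fell, all outside the group above, where 19.2% of all tested genes were lower. With DESeq2, 2 of the 10 were lower. COMMD2 was at 18.2, 16.2 and 20.9 CPM in control against 12.5, 15.3 and 14.3 CPM in knockdown libraries (log2 fold change -0.39 ± 0.10 SE, edgeR adjusted p 0.00379). COMMD4, the most abundant COMMD gene by counts, was at 75.2, 74.2 and 71.8 CPM in control against 60.5, 63.4 and 65.7 CPM in knockdown libraries (log2 fold change -0.22 ± 0.05 SE, edgeR adjusted p 0.000777). COMMD6 fell from 23.7 ± 1.196 to 19.7 ± 1.30 CPM (n = 3 per group, SD; log2 fold change -0.26, edgeR adjusted p 0.00908), and had an adjusted p of 0.0535 with DESeq2. These 3 losses left between 76.5% and 85.8% of the control level. COMMD5 (log2 fold change 0.0056), COMMD7 (-0.0032), COMMD8 (0.045), COMMD10 (0.0086) and DENND10 (0.085), a further CCC subunit, did not pass, with edgeR adjusted p-values from 0.326 to 0.974.

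Other genes of the route were examined by lists chosen by function, with earlier results of these data known. Without the 10 genes above, the lists held 64 genes, of which 60 were tested. Of these, 9 were lower and 18 higher, and 33 did not pass, where 19.2% of all tested genes were lower and 19.3% higher. Their median log2 fold change was 0.058, and 0 of the 60 changed at least 2-fold in either direction (edgeR), against 689 of all 13832 tested genes. Of the 3532 tested genes averaging 1000 counts or more, 3 were lower by at least 2-fold. Decreases of that size thus lay mostly in genes with fewer counts. The lowest was VPS26C, at -0.40. Groups did not overlap for 32 of the 60, against the 47.6% of all tested genes given above.

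**Figure D4:**
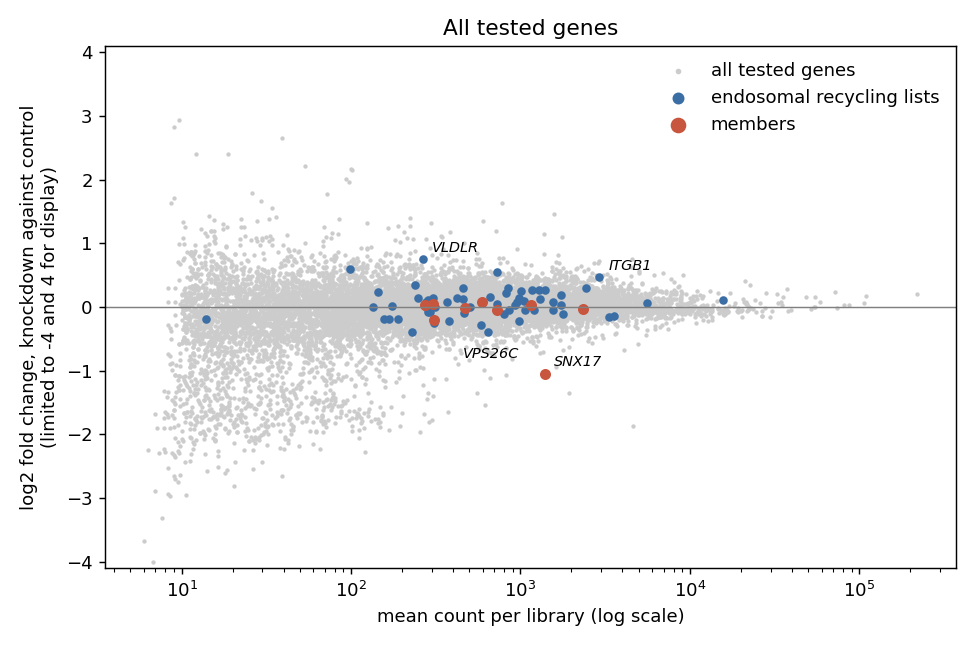
Log2 fold change of knockdown against control (vertical, limited to -4 and 4) against the mean count per library (horizontal, log scale) for all 13832 tested genes (grey), the 60 genes of the endosomal recycling lists (blue) and the 9 tested genes of the SNX17 group (red). SNX17, at a mean of 1392 counts, lies at -1.04, and the other red points lie between -0.20 and 0.083.

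In the WASH complex, 3 of 6 genes rose, where 19.3% of all tested genes did. WASHC4 rose from 73.3 ± 2.71 to 88.4 ± 2.91 CPM (n = 3 per group, SD; log2 fold change 0.27, edgeR adjusted p 8.26e-05). WASHC2C, a subunit that binds retromer, rose from 63.4 ± 3.27 to 75.9 ± 2.56 CPM (n = 3 per group, SD; log2 fold change 0.26, edgeR adjusted p 0.000275). WASHC2A had a log2 fold change of 0.15 (edgeR adjusted p 0.0185) and lost its call in 5 alternatives: with DESeq2, with library size alone, and without control replicate 1, control replicate 2 or knockdown replicate 2 (adjusted p 0.0634 to 0.0893). WASHC2A and WASHC2C are near-identical copies and WASHC1 belongs to a family of copies, so the division of reads among them is uncertain. Among 5 partners of retromer and WASH, the small GTPases RAB21 and RAB7A fell, where 19.2% of all tested genes were lower. RAB21 went from 45.4 ± 1.03 to 37.4 ± 1.22 CPM and RAB7A, which brings retromer to membranes, from 246 ± 6.10 to 221 ± 2.75 CPM (n = 3 per group, SD; log2 fold changes -0.28 and -0.15, edgeR adjusted p 0.000309 and 0.000866).

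Of the other 29 sorting nexin genes, 27 were tested, 2 fell and 7 rose, with a median log2 fold change of 0.034, beside 19.2% lower and 19.3% higher among all tested genes. The 2 that fell were SNX30 (-0.22, edgeR adjusted p 0.0355) and SNX5 (-0.11, 0.0338), a membrane-bending partner in cargo retrieval. Neither passed with DESeq2, where the adjusted p was 0.101 for SNX30 and 0.0950 for SNX5. SNX30 also lost its call without control replicate 2 (log2 fold change -0.14, edgeR adjusted p 0.235), control replicate 3, knockdown replicate 1 or knockdown replicate 2. SNX5 lost its call without filter, with the replicate number as a block (edgeR adjusted p 0.0549 and 0.0524), and without control replicate 1 or 2 or knockdown replicate 2 or 3, where the adjusted p ran from 0.0740 to 0.144. SNX9 rose from 87.3 ± 5.73 to 105 ± 2.76 CPM, SNX12 from 112 ± 3.72 to 128 ± 2.81 CPM and SNX25 from 52.3 ± 3.35 to 64.4 ± 2.15 CPM (n = 3 per group, SD; log2 fold changes 0.26, 0.20 and 0.30, edgeR adjusted p at most 0.000452). SNX16, named after its values were seen, had the highest log2 fold change of the family, 0.60 (edgeR adjusted p 0.00174), at a low level of 5.32 ± 0.654 CPM in control against 8.13 ± 0.789 CPM in knockdown (SD, n = 3 each).

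Of 10 genes for known SNX17 cargo, 8 were tested, 5 rose and 1 fell, with a median log2 fold change of 0.20, beside 19.3% higher and 19.2% lower among all tested genes and their median of -0.0039. VLDLR, a lipoprotein and reelin receptor, was at 13.6, 12.4 and 13.9 CPM in control against 23.4, 23.0 and 21.1 CPM in knockdown libraries (log2 fold change 0.76 ± 0.08 SE, edgeR adjusted p 4.61e-07). ITGB1, the beta 1 integrin chain, was at 163, 170 and 168 CPM in control against 231, 229 and 230 CPM in knockdown libraries, a tight rise to 138.1% of control (log2 fold change 0.47 ± 0.03 SE, edgeR adjusted p 2.19e-09). JAG1, a Notch ligand, was at 40.6, 38.0 and 41.9 CPM in control against 60.3, 57.8 and 59.1 CPM in knockdown libraries (log2 fold change 0.56 ± 0.05 SE, edgeR adjusted p 6.95e-08). In each of these genes the groups were clearly separated.

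LRP8, another reelin receptor, is named after its values were seen. It rose from 80.2 ± 2.90 to 96.8 ± 6.05 CPM (n = 3 per group, SD; log2 fold change 0.27, edgeR adjusted p 0.000206). The 2 tested genes of the SNX17 cargo list that did not pass were LRP1 and APP. Their log2 fold changes were -0.185 and 0.069 (edgeR adjusted p 0.200 and 0.0859), and that of LRP1 was the lowest of the list. ITGB5, the beta 5 integrin chain, fell from 262 ± 4.42 to 237 ± 7.87 CPM (n = 3 per group, SD; log2 fold change -0.14, edgeR adjusted p 0.00201). Of 5 genes for cargo of SNX27 or of the CCC complex, 4 were tested and 3 rose, beside the same 19.3% of all tested genes. NOTCH2 rose from 150 ± 1.79 to 185 ± 10.9 CPM, the copper pump gene ATP7A from 14.3 ± 1.05 to 18.3 ± 0.451 CPM, and the glucose transporter gene SLC2A1 from 1049 ± 20.9 to 1132 ± 26.9 CPM (n = 3 per group, SD; log2 fold changes 0.30, 0.35 and 0.11, edgeR adjusted p at most 0.00383). These are RNA levels, and the amount of each receptor at the cell surface was not measured.

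**Figure D5:**
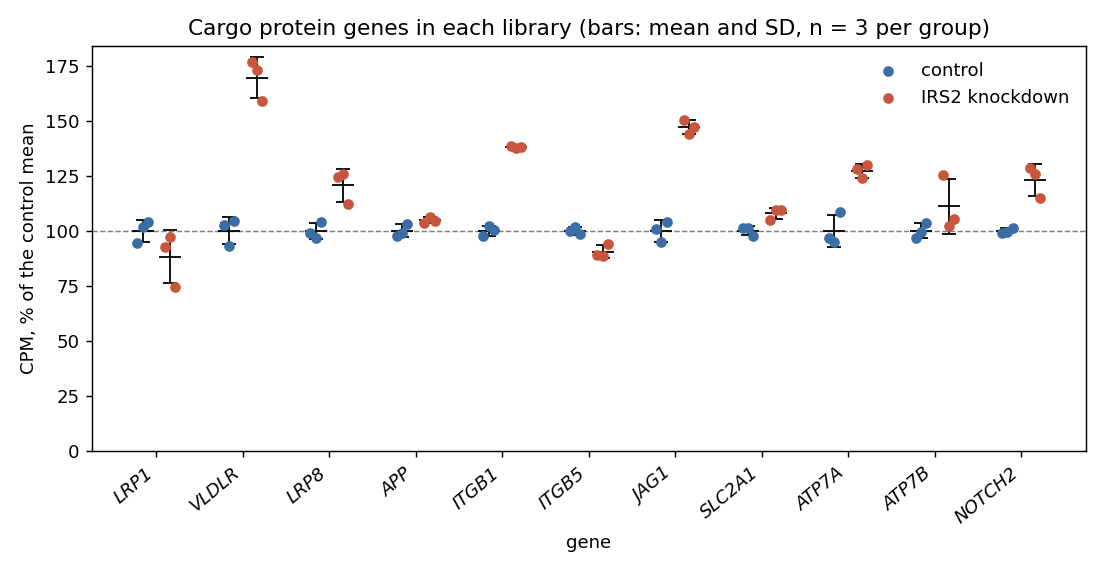
CPM of tested cargo genes in each of the 6 libraries, as a percentage of the mean of the 3 control libraries (blue, control; red, IRS2 knockdown; black bars, mean and SD, n = 3 per group). The genes from LRP1 to JAG1 encode SNX17 cargo, and those after JAG1 encode cargo of SNX27 or of the CCC complex; ITGB1 sits at 138.1% of control in knockdown libraries.

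Per kilobase of the canonical GENCODE transcript, SNX17 was the most abundant of the 10 genes in control cells, at 58.0 ± 1.501 CPM per kilobase (SD, n = 3). It was followed by VPS29 at 33.5 ± 0.627 and COMMD1 at 27.0 ± 4.20 (SD, n = 3 each). The libraries of COMMD1 (23.0 to 31.4) spanned those of VPS35, at 24.4 ± 0.463, and reached those of COMMD3, at 22.4 ± 1.03, so COMMD1 could not be ordered against either. CCDC22 (17.4), CCDC93 (11.6), COMMD9 (7.87) and SNX27 (5.10) were lower on this scale, each without overlap with the next, and SNX31 was at 0. In knockdown cells SNX17 was at 28.1 ± 1.40 CPM per kilobase, below VPS29 at 32.5 ± 2.18, and its libraries (26.5 to 29.0) overlapped those of COMMD1 (25.5 to 28.7). Which transcripts were counted is not given in the sources used here, so these levels rest on the canonical lengths.

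The genes most like SNX17 over the 6 libraries were sought among 10448 others averaging 100 counts or more, by the Euclidean distance between log2 CPM profiles centred on their own means. The nearest was C9orf78 at a distance of 0.0812, followed by H1-2 (0.138), ATP8B2 (0.141), FAM20C (0.154) and DLX2 (0.170). C9orf78 was at 79.4, 83.3 and 79.9 CPM in control against 36.7, 38.8 and 39.7 CPM in knockdown libraries, 47.6% of control against 48.5% for SNX17. The log2 fold changes of the other 4 lay between -1.11 and -0.99. With 2 groups of 3, this measure mainly finds genes with a fold change close to that of SNX17. None of these 5 belongs to the lists above.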

How the data were processed

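The deposited table gives raw read counts by gene symbol in 6 libraries, and the submitters' processing notes name STAR 2.6.1a, Salmon, DESeq2 and hg19 without roles. The counting step, strand setting and annotation are not given in the sources used here. A second deposited table, on another scale, was not used, and 0 columns of other samples were present. Members and lists were chosen with earlier results of these data known.

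Counts were fitted across all genes with edgeR 4.0.16 (R 4.3.3) by the quasi-likelihood F-test, with TMM factors, filterByExpr and no term besides group. Adjustment of p-values was by Benjamini-Hochberg over the 13832 tested genes (threshold 0.05). SE is the absolute log2 fold change over the square root of F, and 95% intervals use the fit's t quantile. An exact test of 3 against 3 cannot go below 0.1.

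Named genes were the 10 members, the retriever and CCC genes, the 3 smallest p in each direction of each other list, 5 neighbours on each side of SNX17, the 5 genes nearest to it, and IRS2. A gene of the cargo lists is not reported here by name, though the counts over its list include it. Positions and transcript lengths came from GENCODE 44 lifted to GRCh37, the build named in the notes. On simulated counts for this comparison (13711 genes), 99% of changes of 1 and 84% of changes of 0.5 on the log2 scale were recovered, and 0.0814% of unchanged genes were called. The changed genes, 100 of each size, were drawn from those averaging at least 50 counts, so recovery at lower counts was not measured. They were a far smaller part of the genes than the 38.5% called in the data. The shares recovered and wrongly called may therefore differ in the data. No replicate pair agreed within counting error (chi-square per degree of freedom 1.42 to 2.78). Same-numbered libraries had deviations correlated at 0.045, -0.011 and -0.098, so the numbers were not taken as pairs. Alternatives covered scaling, filters, DESeq2 1.42.0, limma 3.58.1 voom, a replicate block, length and GC correction, and leaving out each library.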

Additional observations from a re-analysis of the deposited data

How the results depend on the processing

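Over 16 alternative fits the log2 fold change of SNX17 lay between -1.075 and -1.004, and those of the 8 other tested members between -0.26 and 0.16. Members past the threshold as lower numbered 2 in place of 1, with COMMD9 added, under upper-quartile factors, library size alone, a mean of at least 50 counts, the length and GC correction, and that correction with the replicate block, and 1 to 2 when each replicate was left out. The total called ran from 3714 (threshold 0.01) to 5841, and was 4862 with the replicate block, under which 1 member was lower and, of the recycling lists, 8 genes were lower and 18 higher. Of 831 values for 52 named genes, 774 kept direction and call, 18 lost a call, 7 gained one and 32 changed sign, all of genes not called. COMMD5 became -0.015 (upper-quartile), -0.025 (library size), -0.0075 (mean of 50), -0.0025 (voom), -0.0088 (replicate block), -0.011 (length and GC) and -0.028 (that with the replicate block). COMMD10 became -0.012, -0.022 and -0.0044 under the first 3 of these. SNX27 became 0.0014 (no filter), 0.0024 (length and GC) and 0.0017 (that with the replicate block), COMMD7 0.0082 (no filter) and IFT172 -0.0081 (library size). When each replicate was left out, the ranges were -0.071 to 0.16 for COMMD1, -0.031 to 0.046 for COMMD10, -0.12 to 0.12 for COMMD5, -0.040 to 0.023 for COMMD7, -0.076 to 0.39 for GTF3C2-AS1, -0.018 to 0.066 for IFT172 and -0.045 to 0.032 for SNX27. The cause of these changes was not tested. SNX31 had too few counts to be tested.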
